A study of Mus musculus with 25 samples.

Results

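The cytosolic ribosomal protein genes encode the protein subunits of the ribosomes that translate nuclear mRNA. The members were chosen by name: gene symbols of the form Rpl or Rps followed by a number and, in some, a letter, together with Rplp0, Rplp1, Rplp2 and Rpsa, and without pseudogenes. The table of counts held 77 such genes among 21720, of which 46 belong to the large and 31 to the small subunit. All 77 passed the filter on low counts, and the lowest count of any member in any mouse was 14 (Rpl39).

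The libraries hold cortical RNA from 25 male mice, 6 months old, in 5 groups of 5. The wild type mice were of strain C57BL/6J and received vehicle. The other 4 groups were transgenic mice of strain B6C3 with the genotype APPswe, PSEN1dE9, an amyloid model. In the widely used line of that genotype the mouse prion protein promoter drives both transgenes. One transgenic group was injected with vehicle and served as the model control. The others were given 5 mg/kg of either (-)-vestitol, an isoflavan, or salviolone, a diterpenoid from sage, or a combination with 2.5 mg/kg of each. Injections were intraperitoneal, once a day for 3 months. Genotype and strain cannot be told apart in the comparison with wild type, and the combination holds each compound at a lower dose than the single treatments do.

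In a ribosome the small subunit reads the mRNA and the large subunit joins the amino acids and guides the growing chain through an exit tunnel. The mRNAs of the subunit proteins belong to a class that begins with a run of pyrimidines, the 5′ terminal oligopyrimidine motif, through which the mTOR pathway sets their translation. In neurons, mRNAs of ribosomal proteins are also found in axons and dendrites.

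Promoter and start sequences of 4 members are shown as examples, not as the 4 with the smallest p. Rpsa, Rplp2 and Rpl14 were among the 27 members called higher with the combination, and Rpl22 was the member called lower. They come from RefSeq, build GRCm38.p6, plus strand, and cover 70 bases before and 15 bases from the annotated start. Capitals mark ACTTCCG or its reverse complement CGGAAGT, a core bound by ETS family factors, and a run of at least 8 C or T that spans the annotated start. The windows are chr9:120127696-120127780 (Rpsa), chr7:141447581-141447665 (Rplp2), chr9:120571447-120571531 (Rpl14) and chr4:152325656-152325740 (Rpl22, the first of its 2 entries).
Rpsa: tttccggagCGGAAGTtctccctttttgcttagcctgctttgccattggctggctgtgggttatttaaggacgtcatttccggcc
Rplp2: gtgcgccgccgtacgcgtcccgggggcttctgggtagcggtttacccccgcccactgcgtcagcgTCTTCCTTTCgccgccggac
Rpl14: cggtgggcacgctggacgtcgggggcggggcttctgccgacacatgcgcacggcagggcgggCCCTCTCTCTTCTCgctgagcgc
Rpl22: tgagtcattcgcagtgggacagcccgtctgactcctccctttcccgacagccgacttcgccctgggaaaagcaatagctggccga

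RefSeq promoter entries of 300 bases (250 before and 50 after the start) matched 57 of the 77 members, in 67 entries. The ACTTCCG core stood on either strand in 31.3% of the member entries and in 6.42% of all 32851 entries. The pyrimidine run over the annotated start stood in 25.4% of the member entries, against 3.86% of all entries. Either match can overlap the other. Rplp2 and Rpl14 carry the pyrimidine run, Rpsa carries the core, and in the window of Rpl22 neither was found. Whether either match goes with the direction of change of a member was not tested.

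Total counts per library ran from 59376320 to 109776852, with the 3 deepest libraries in the combination group. In each library 41.5% to 46.4% of the counts from 1 to 20 were multiples of 4, where an even spread gives 25%, against 24.7% to 26% of the counts of 100 or more. What 1 count stands for at the low end is not given in the sources used here. As a check of the labels, App was at 3439 CPM or more in all 20 transgenic mice and at 1800.2 CPM or less in wild type. CPM here express each count relative to its library's total after TMM adjustment, and means carry the SD over 5 mice. A gene is called when edgeR's quasi-likelihood test gave a Benjamini-Hochberg adjusted p under 0.05 over 16515 tested genes. Each library came from a separate mouse. Wild type mouse 3 stood apart: its pituitary markers summed to 5806 CPM, against 5.42 CPM or less in every transgenic mouse, and 67 of the 77 members were highest in it among the wild type mice. In bulk tissue, fewer cells of a type and less RNA per cell cannot be told apart.

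Together the 77 members took about 1% of all counts in every mouse. Their share was 0.984%, 0.968%, 1.16%, 1.02% and 1.02% in the wild type mice 1 to 5, a mean of 1.03% ± 0.0753 (SD, n = 5). In the model control the shares were 1.05%, 0.964%, 0.998%, 1.01% and 1.01% (1.01% ± 0.0326). The ranges overlapped: all control mice but mouse 2 lay inside the wild type range. The vestitol mice had 0.962%, 0.964%, 1.04%, 0.996% and 1.01% (0.994% ± 0.0323), and the salviolone mice 1.04%, 1.01%, 1.04%, 1.04% and 1.04% (1.03% ± 0.0131). With the combination the shares were 1.14%, 1.02%, 1.09%, 1.16% and 1.14% (1.11% ± 0.0586). Of the combination mice, 4 lay above every other transgenic mouse, and mouse 2 lay inside the range of the model control. Since the share sums all members, it is given without a test.

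**Figure D1:**
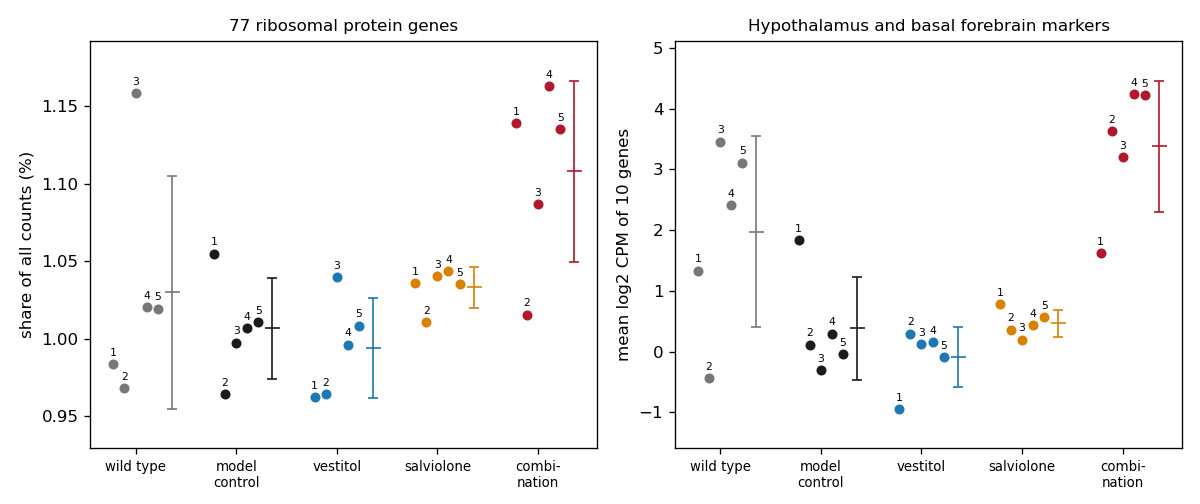
Left, share of all counts (%) taken by the 77 ribosomal protein genes; right, mean log2 CPM of 10 marker genes of hypothalamus and basal forebrain. Points are single mice with their number, and bars are mean ± SD of 5 mice. Combination mice 1, 3, 4 and 5 (1.09% to 1.16%) lie above all other transgenic mice, and combination mouse 2 (1.02%) does not.

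Levels between genes were compared per length, on the authors' FPKM scale and as CPM per kb of the shortest principal transcript in GENCODE M21. Mean FPKM over the 25 mice ran from 0.578 (Rpl39) to 772 (Rpl3), with a median of 91.9. Rpl3, which lies close to the peptidyl transferase centre, was followed by Rpl26 and Rpl23 at 335 and 322 FPKM. The lowest after Rpl39 were Rps28, Rpl36a, Rps25 and Rps10 at 7.42, 13.1, 13.7 and 15 FPKM. The gene lengths implied by the authors' FPKM exceeded the annotated gene span for 16 members and were over 2 times the principal transcript for 36, so this order depends on the length used. Rpsa was at rank 68 of 77 by FPKM with an implied length of 13560 bases, in a gene that spans 4681 bases (chromosome 9, 119956755 to 119961435, mm39). Per kb of principal transcript, Rplp1 was highest at 425 CPM per kb, and the median was 164. Rpl39 was lowest on both scales, at 0.664 CPM, a level based on 14 to 87 counts a mouse.

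How vehicle-treated transgenic mice differed from wild type was examined first. No member was called, against 11.6% of all tested genes called in either direction (5.37% raised and 6.21% lowered). The median member log2 fold change was 0.00, with 39 of 77 members above 0, and the median over all genes was -0.01. For no member did all mice of a group lie beyond the other group, against 2.43% of all genes above and 2.13% below. Before adjustment, 7 members had p under 0.05 (3 higher and 4 lower), 9.09% against 25.8% of all genes. Tissue and cell type markers moved in this comparison too. Of 10 hypothalamus and basal forebrain genes 4 fell (median -1.47). So did 3 of 4 pituitary, 2 of 6 meninges and 1 of 5 thalamus genes. Of 7 plaque-associated microglia genes 7 rose (median 1.24), as did 2 of 6 microglia, 2 of 6 neuron and 1 of 5 astrocyte genes. None was called in the other marker lists. The part of these markers in the member values was not tested.

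The 3 members with the smallest p were Rpl3, Rpl23 and Rpl7, all of the large subunit. Rpl3 was at 549, 506, 553, 575 and 548 CPM in wild type and at 538, 451, 491, 474 and 489.5 CPM in the model control. Only control mouse 1 reached into the wild type range. The log2 fold change was -0.16 ± 0.06 (SE), with an adjusted p of 0.073 (edgeR). Rpl23 was at 126 ± 7.37 CPM in wild type and 138 ± 7.04 CPM in the model control, and Rpl7 at 135 ± 5.89 and 147 ± 10.7 CPM. Their log2 fold changes were 0.12 ± 0.05 and 0.13 ± 0.05, with adjusted p = 0.101 and 0.121 (edgeR). Without wild type mouse 3, the library with pituitary markers, Rpl23 was called (log2 fold change 0.16, adjusted p = 0.0318, edgeR).

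**Figure D2:**
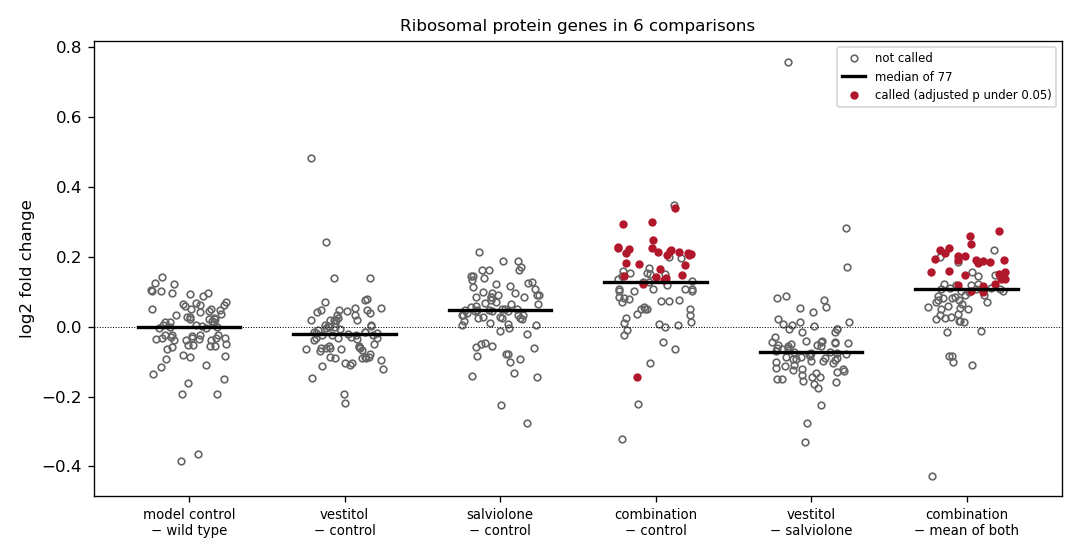
Log2 fold change of each of the 77 members in 6 comparisons; horizontal jitter only separates points, filled points were called, and bars are medians of the members. The medians of the model control and of vestitol lie close to 0, and those of the combination at 0.13 and 0.11.

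With vestitol against the model control no member was called, and neither was any other of the 16515 genes (0%). The member median was -0.02, with 28 members above 0. At an unadjusted p under 0.05, 6 members were lower, among them Rpl14, Rpl37, Rps25, Rps27 and Rps29, and none higher, 7.79% of the members against 7.56% of all genes (3.77% higher and 3.79% lower). No member had groups without overlap, against 0.781% of all genes above and 0.842% below. Rps27, a small subunit protein with a zinc finger, was at 87.9 ± 8.88 CPM with vestitol and 100.5 ± 3.08 CPM in the control (log2 fold change -0.19 ± 0.07, adjusted p = 0.5, edgeR). Rps25, needed at some viral internal ribosome entry sites, had -0.10 ± 0.04 (adjusted p = 0.541), and Rpl14 -0.11 ± 0.04 (adjusted p = 0.567, edgeR).

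With salviolone no member was called either, among 0.0242% of all genes (4 genes). The median was 0.05, with 59 of 77 members above 0. At an unadjusted p under 0.05, 11 members were higher and 2 lower, together 16.9% of the members against 11.5% of all genes (5.18% higher and 6.29% lower). Rpl13 had the smallest p, at 185, 182, 194, 194 and 205 CPM with salviolone against 169.6, 162, 167, 157 and 171 CPM in the control. Its groups did not overlap, as for 4 members (Rpl13, Rpl27a, Rpl8 and Rps20) higher and 1 (Rps27) lower, against 1.14% and 1.22% of all genes. The log2 fold change of Rpl13 was 0.21 ± 0.05 with adjusted p = 0.126 in edgeR. DESeq2 called it (adjusted p = 0.0305). Rps20 had 0.19 ± 0.06 (adjusted p = 0.214) and Rpl17 0.12 ± 0.04 (adjusted p = 0.271, edgeR).

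The combination was the treatment in which members were called against the model control. Of the 77 members, 27 rose, Rpl22 alone fell, and 49 were not called. Thus 35.1% of the members were raised, against 7.83% of all tested genes, and 1.3% were lowered, against 7.13%. The median member log2 fold change was 0.13, with 68 members above 0, and the median over all genes was 0.00. The changes were small: the raised members had log2 fold changes from 0.12 to 0.34. Large and small subunit genes had the same median of 0.13, with 17 of 46 and 10 of 31 raised. For 20 members every combination mouse lay above every control mouse, 26% against 7.05% of all genes, and for no member below, against 5.59%.

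**Figure D3:**
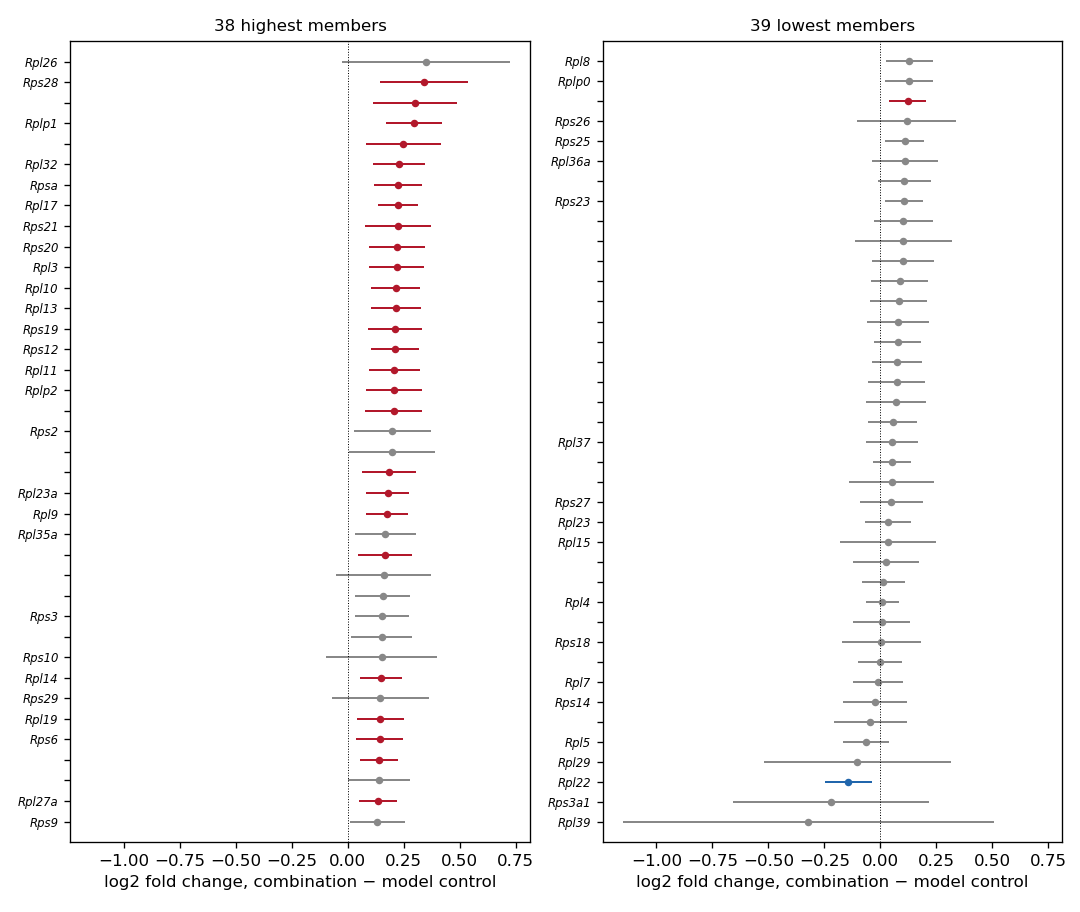
Log2 fold change, combination minus model control, for the 77 members in order of size, with 95% confidence intervals; members described in the text are labelled. Red marks raised, blue lowered and grey not called. The 27 raised members lie between 0.12 and 0.34, Rpl22 at -0.14, and Rpl26, Rps3a1, Rpl29 and Rpl39 have wide intervals.

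The P stalk, formed by Rplp0, Rplp1 and Rplp2, recruits the translation factors that hydrolyse GTP. Rplp1 was at 207, 188, 197, 180.2 and 213 CPM in the control mice and at 236, 239.8, 235, 245 and 253 CPM with the combination, so that all combination mice were higher. It rose by a log2 fold change of 0.29 ± 0.06 (adjusted p = 0.0014, edgeR). Rplp2 was at 57.6, 55.7, 61.5, 56.7 and 60.4 CPM in the control and at 62.2, 68.1, 66.5, 70.3 and 69.4 CPM with the combination. Its groups did not overlap, and it rose by 0.20 ± 0.06 (adjusted p = 0.019, edgeR). That call was lost without control mouse 2 (adjusted p = 0.0575), combination mouse 4 (0.0588) or combination mouse 5 (0.0518). Rplp0, the scaffold of the stalk, was at 158 ± 6.85 against 173 ± 9.40 CPM (log2 fold change 0.13 ± 0.05, adjusted p = 0.0825, edgeR) and was not called.

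On the platform of the small subunit, where mRNA leaves, Rpsa and Rps28 rose. Rpsa, also known as the laminin receptor, was at 286, 270.4, 293, 286 and 299.9 CPM in the control. With the combination it was at 355, 319, 307, 346 and 350.4 CPM, above every control mouse. The log2 fold change was 0.22 ± 0.05 (adjusted p = 0.00343, edgeR). Rps28 was at 31.0, 31.1, 28.0, 27.8 and 30.3 CPM and at 43.0, 37.9, 34.6, 33.6 and 38.6 CPM, the largest rise among the called members (0.34 ± 0.09, adjusted p = 0.0146, edgeR). Combination mouse 1 was highest, and without it the call was lost (0.28, adjusted p = 0.061). Rps14 and Rps26 of the same list had log2 fold changes of -0.02 ± 0.07 and 0.12 ± 0.10.

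At the peptide exit tunnel 3 of 9 members rose, Rpl17, Rpl23a and Rpl19. Rpl17 had the smallest adjusted p of all members. Its control mice were at 165, 155, 151, 152 and 158 CPM and its combination mice at 188, 178, 172, 189 and 187 CPM, with no overlap (log2 fold change 0.22 ± 0.04, adjusted p = 8.4e-04, edgeR). Rpl23a, at the site where nascent chain factors dock, rose by 0.18 ± 0.04 (adjusted p = 0.00762, edgeR). Rpl4, whose loop lines the tunnel, was among the steadiest members: 429 ± 18.1 CPM in the control and 432 ± 7.88 CPM with the combination (0.01 ± 0.03).

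**Figure D4:**
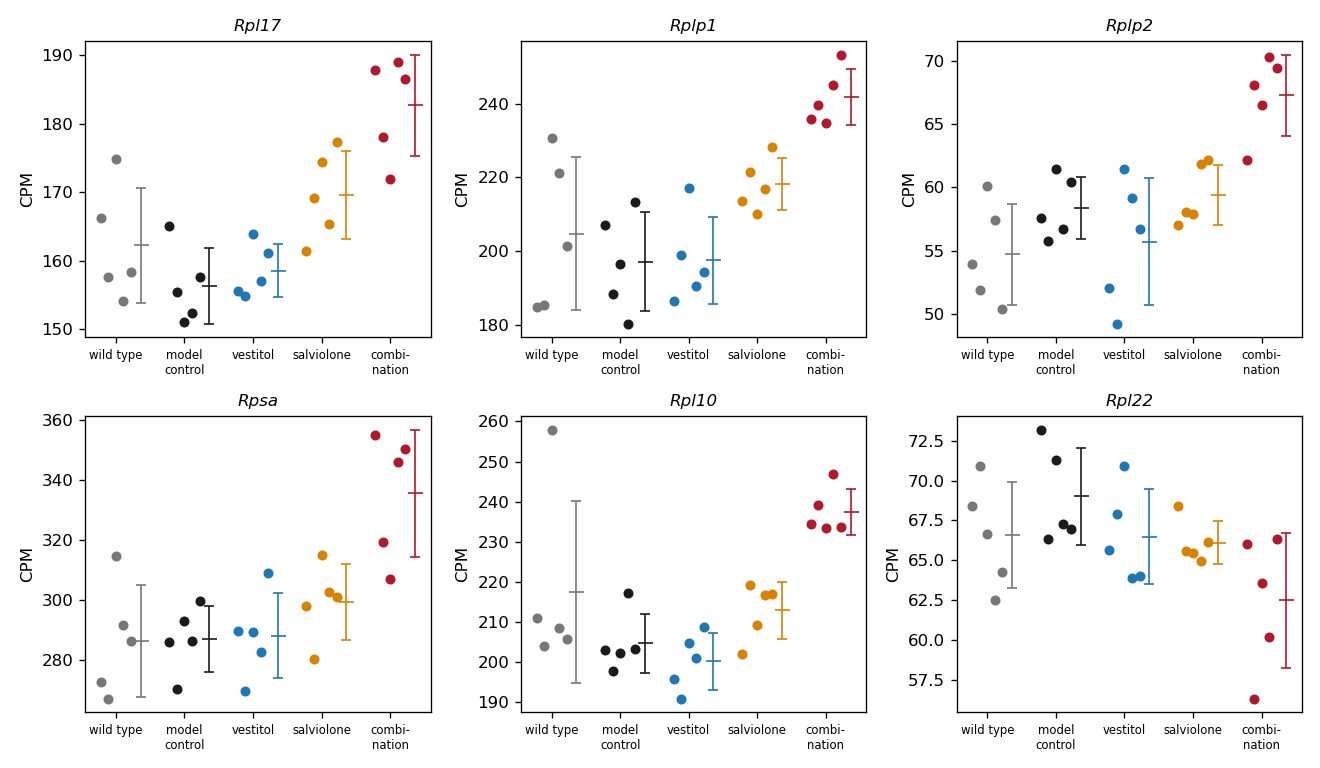
CPM of 6 members in each mouse by group; points are mice, and bars are mean ± SD of 5 mice on axes that do not start at 0. For Rpl17, Rplp1, Rplp2, Rpsa and Rpl10 every combination mouse lies above every model control mouse, and for Rpl22 the groups overlap at 66.3 to 66.4 CPM.

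In the 5S particle, whose free proteins bind the p53 regulator Mdm2, Rpl11 rose and Rpl5 did not pass the test. Rpl11 was at 92.6, 82.5, 91.1, 77.8 and 86.7 CPM in the control and at 102, 91.3, 99.1, 105 and 100.2 CPM with the combination. Combination mouse 2 alone fell inside the control range, and the log2 fold change was 0.21 ± 0.05 (adjusted p = 0.00917, edgeR). Rpl5 was at 177 ± 8.58 and 169.7 ± 5.12 CPM (-0.06 ± 0.05, adjusted p = 0.407, edgeR). None of the 4 members of the mRNA entry and decoding list (Rps2, Rps3, Rps9 and Rps23) was called, with log2 fold changes of 0.11 to 0.20.

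Rpl10, which joins the large subunit late in assembly, was at 203, 198, 202, 217 and 203 CPM in the control and 234, 239, 233, 247 and 234 CPM with the combination. It rose by 0.21 ± 0.05 without overlap (adjusted p = 0.00551, edgeR). Rpl32 and Rps12 rose by 0.23 ± 0.05 and 0.21 ± 0.05 (adjusted p = 0.00589 and 0.00623, edgeR). Rpl14 rose by 0.15 ± 0.04 (adjusted p = 0.0214, edgeR), a call lost without control mouse 2 or 4 or combination mouse 1 or 4 (adjusted p = 0.0587 to 0.0898). Rps19, mutated in Diamond-Blackfan anaemia, rose by 0.21 ± 0.06 (adjusted p = 0.0117, edgeR). Rps6, the substrate of the S6 kinases, was at 160.2 ± 8.34 and 177 ± 6.98 CPM and was called near the threshold (0.14 ± 0.05, adjusted p = 0.0463, edgeR). The call on Rps6 was lost under 13 of 21 other settings, 8 of which leave out 1 mouse.

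Rpl22, an RNA-binding protein of the large subunit, was the member called lower. It was at 73.2, 66.3, 71.3, 67.3 and 66.9 CPM in the control and at 66.0, 56.3, 63.6, 60.2 and 66.4 CPM with the combination. The groups overlapped by the highest combination and the lowest control mouse. The log2 fold change was -0.14 ± 0.05 (adjusted p = 0.0488, edgeR), and the call was lost under 12 of 21 other settings, 7 of them leaving out 1 mouse (control 1, 3, 4 or 5, or combination 2, 3 or 4, adjusted p = 0.0516 to 0.13). Its paralog Rpl22l1, which Rpl22 is known to repress, was at 3.37 ± 0.110 CPM in the control and 2.73 ± 0.480 CPM with the combination (-0.31 ± 0.21, adjusted p = 0.365, edgeR). Against the mean of both compounds Rpl22l1 was called lower (-0.53 ± 0.18, adjusted p = 0.036), and Rpl22 was not (-0.09, adjusted p = 0.153, edgeR).

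The number of raised members depended on single mice. It was 15 without control mouse 2 or without combination mouse 1, 16 without combination mouse 4, 17 without combination mouse 5 and 31 without combination mouse 2. The share of members raised was thus 19.5% without control mouse 2 or combination mouse 1, where 5.83% and 5.73% of all genes were raised. It was 20.8%, 22.1% and 40.3% without combination mice 4, 5 and 2, against 5.62%, 6.20% and 6.41% of all genes. Control mouse 2 was the lowest of its group for 37 members, and combination mouse 2 the lowest of its group for 40. With only combination mice 1 and 2, leaving out the 3 deepest libraries, 4 members were raised among 914 called genes, 5.19% of the members against 3.01% of all genes. Rpl17 and Rpsa kept their calls there (adjusted p = 0.0238 and 0.0399, edgeR), and their log2 fold changes were 0.22 and 0.23.

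Markers of neighbouring brain regions moved in the same comparison. Of 10 hypothalamus and basal forebrain genes 7 rose, with a median log2 fold change of 2.39, and their summed level was 407 to 674 CPM in the combination mice against 80.7 to 264 CPM in the control and 106 to 607 CPM in wild type. The hormone genes Oxt, Avp, Hcrt and Pmch of that list were at 0 counts in 6, 3, 8 and 6 of the 25 libraries. Of 6 striatum genes 5 rose (median 0.60, summed 913 to 1432 against 607 to 853 CPM). Of 5 thalamus genes 1 rose and 1 fell (median -0.31). Markers of neurons, astrocytes and choroid plexus moved too. Among 6 neuron genes Gad2 rose by 0.72 and Snap25 and Rbfox3 fell by 0.51 and 0.24 on the log2 scale (summed 4428 to 4940 CPM against 4639 to 5587 CPM). Among 5 astrocyte genes Slc1a2 fell by 0.32 (summed 3290 to 3739 CPM against 3951 to 4459 CPM). Among 8 choroid plexus genes Folr1 and F5 fell by 2.33 and 2.52 (summed 12.1 to 72.3 CPM against 17.6 to 469.7 CPM). The part of these cell type markers in the member values was not tested. The mean log2 CPM of the hypothalamus list was 1.62, 3.63, 3.20, 4.24 and 4.22 in combination mice 1 to 5 and 1.84, 0.11, -0.30, 0.29 and -0.04 in the control mice. Combination mouse 1 lay below control mouse 1 on that list and had a member share of 1.14%, while combination mouse 2 had a list score of 3.63 and a member share of 1.02%. The wild type mice 1 to 5 had list scores of 1.33, -0.44, 3.45, 2.41 and 3.11. Their member shares were 0.984%, 0.968%, 1.16%, 1.02% and 1.02%. Wild type mouse 3 and control mouse 1 (score 1.84, share 1.05%) were each highest of their group in both. How the score and the share go together over mice was not tested. With the list score as a covariate no gene at all was called, and the member median was 0.06. With that covariate the log2 fold change was 0.17 for Rpl17 and 0.12 for Rplp1 (adjusted p = 0.367 and 0.616, edgeR). Since 4 of the 5 combination mice lie above every control mouse on that score, treatment and sampled tissue cannot be told apart by this fit.

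The combination was also compared with the mean of both single compounds, a comparison that uses other mice than the model control but the same combination mice. Here 27 members rose, none fell and 50 were not called, so 35.1% were raised against 12.9% of all genes. At an unadjusted p under 0.05, 51.9% of the members were higher and none lower, against 35.2% of all genes in either direction. The median was 0.11, with 70 of 77 members above 0, and that of all genes 0.01. Of the 27 members, 21 were also among those raised against the control. The other 6 included Rpl35a, Rpl37, Rps23, Rps25 and Rps27. For 7 members (Rpl10, Rpl32, Rpl9, Rplp1, Rplp2, Rps12 and Rps25) every combination mouse lay above every mouse of both single treatments, 9.09% against 5.61% of all genes, and for no member below, against 4.57%.

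Rpl9 had the smallest p in that comparison. It was at 209, 209.8, 217, 221 and 225 CPM with vestitol, 221, 229.8, 219, 237 and 233 CPM with salviolone and 262, 245, 245, 263 and 263 CPM with the combination (log2 fold change 0.20 ± 0.04, adjusted p = 2.3e-04, edgeR). Rpl3 was at 459.5 ± 23.5, 490.3 ± 32.5 and 568 ± 45.0 CPM in that order (0.26 ± 0.05, adjusted p = 3.4e-04, edgeR). Rps19 rose by 0.24 ± 0.05 and Rpl14 by 0.18 ± 0.04 (adjusted p = 6.8e-04 and 6.9e-04, edgeR). Leaving out combination mouse 1 or 4 brought the 27 raised members to 16 or 17 (20.8% and 22.1%, against 10.5% and 10.4% of all genes). Without the 3 deepest libraries 6.49% of the members were raised, against 6.83% of all genes. Here 8 of the 10 hypothalamus genes (median 3.08) and 5 of the 6 striatum genes (median 0.73) rose too. Among the neuron genes 2 rose and 3 fell, 4 of 6 meninges genes rose (median 0.59) and 2 of 6 oligodendrocyte genes fell (median -0.33). Among the astrocyte genes 2 rose and 1 fell, and 1 choroid plexus, 1 endothelium and 1 thalamus gene rose and 1 thalamus gene fell. With the hypothalamus score as a covariate no member was called, and 0% of all genes were raised. Beyond that fit, the part of these markers in the result was not tested.

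At the same dose of 5 mg/kg, vestitol and salviolone were compared as 1 pair of compounds. No member was called, against 0.684% of all genes (0.593% higher and 0.0908% lower with vestitol). The median was -0.07, with 15 members above 0, and at an unadjusted p under 0.05, 19 members were lower and 1 higher with vestitol (26% together, against 11.7% of all genes, 6.67% higher and 5.04% lower). Rps21, a small subunit protein, was at 75.3, 78.5, 86.3, 84.1 and 77.2 CPM with vestitol and at 89.9, 99.0, 97.7, 95.2 and 104 CPM with salviolone. The groups did not overlap, as for 4 members in this direction (Rpl11, Rpl14, Rpl8 and Rps21) against 1.23% of all genes, and 1 (Rpl39) in the other, against 1.71%. The log2 fold change of Rps21 was -0.28 ± 0.07, with a 95% interval of -0.42 to -0.13 and adjusted p = 0.0626 in edgeR, and DESeq2 called it (adjusted p = 0.019). Rpl14 had -0.16 ± 0.04 (adjusted p = 0.104, edgeR) and was called in DESeq2 (0.0415). The 95% intervals of the log2 difference were -0.18 to -0.01 for Rpl17, -0.16 to 0.05 for Rpsa and -0.12 to 0.02 for Rpl4. All 13 mitochondrially encoded genes were higher with vestitol (summed 7590 to 8309 against 4116 to 6206 CPM). Their part in the member values was not tested beyond leaving them out of the scaling, after which again no member was called.

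Other genes of the translation machinery were counted in the combination against the control, where 7.83% of all genes were raised and 7.13% lowered. Of 3 subunit genes outside the name rule, 2 had a fold change above 0 and none was called. Of 18 other genes with the oligopyrimidine motif, 4 rose and 1 fell. The elongation factor gene Eef1a1 rose by 0.22 ± 0.05 and the initiation factor gene Eif3f by 0.23 ± 0.05, while the histone chaperone gene Nap1l1 fell by 0.28 ± 0.05 on the log2 scale (adjusted p = 0.00323, 0.00151 and 0.00118, edgeR). Of 32 ribosome biogenesis genes 1 rose, Rrp1b (0.36 ± 0.08), and the list median was -0.01. Of 24 genes of mTOR signalling to ribosomes none rose and 3 fell: Rheb, Rps6kb1 and Eif4e (-0.28 ± 0.08, -0.19 ± 0.06 and -0.28 ± 0.10). Among 78 mitochondrial ribosomal proteins 2 rose and 2 fell (median 0.04), among 87 nuclear genes of oxidative phosphorylation 4 rose and 1 fell (median 0.04), and 6 of 13 mitochondrially encoded genes fell (median -0.33).

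A few members differed between mice of the same group more than between groups, and were singled out after their values were seen. Rpl26, of the exit tunnel list, was at 114, 106, 114, 185 and 172 CPM in the control, at 173, 166, 118, 168 and 193 CPM with vestitol, at 114, 174, 182, 184 and 119 CPM with salviolone, and at 190.4, 117, 185, 197 and 190.0 CPM with the combination. Thus 7 transgenic mice lay between 106 and 119 CPM, and the 18 other mice, all wild type mice among them, between 166 and 197 CPM, with none in between. This was the widest gap of any member with at least 3 mice on either side. The 7 mice were 3 of the control, 1 of vestitol, 2 of salviolone and 1 of the combination. The fold change of Rpl26 in the combination (0.35 ± 0.18, adjusted p = 0.21, edgeR) compares groups that hold different numbers of such mice.

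Rpl15, a large subunit protein, ran from 79.3 to 96.6 CPM in 5 transgenic mice and from 109 to 133 CPM in the others. Rps3a1, of the small subunit, was at 167 to 201 CPM in wild type and at 202, 214, 201, 148 and 125 CPM in the control, and reached 78.2 CPM in combination mouse 2. For both, wild type mice lay on the upper side only. Wild type is a single inbred strain and the transgenic mice carry B6C3 background, and whether strain differences between mice move with these values was not tested.

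Processed pseudogenes share sequence with their parent genes, and the table held 7 pseudogene rows. Rps18-ps6 (chromosome 13, 97896580 to 97897140, mm39) was at 0.624 to 1.74 CPM in 21 mice and at 22.1 CPM in vestitol mouse 1, 24.7 and 26.6 CPM in salviolone mice 2 and 5 and 27.3 CPM in combination mouse 2. Its parent Rps18, a small subunit head protein, was lowest in those same 4 mice, at 94.9, 112, 108 and 105 CPM, against 113 to 143 CPM in the other 21. The sum of Rps18, Rps18-ps5 and Rps18-ps6 was 119.7, 140.1, 138 and 137 CPM there, inside the 115 to 145 CPM of the other mice. Rplp2-ps1 was at 0.0876 CPM or less in 10 mice and at 2.43 CPM or more in 15. The 15 were wild type mouse 2, control mouse 3, vestitol mice 2 to 5, salviolone mice 1, 2, 4 and 5 and the 5 combination mice. The combination mice were also the highest for Rplp2 itself (62.2 to 70.3 CPM), while vestitol mouse 2 was the lowest (49.2 CPM). Adding the pseudogene counts to their parent genes left 27 members raised in the combination. How reads shared between copies were assigned is not given in the sources used here, so the levels of members with near-identical copies are uncertain.

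**Figure D5:**
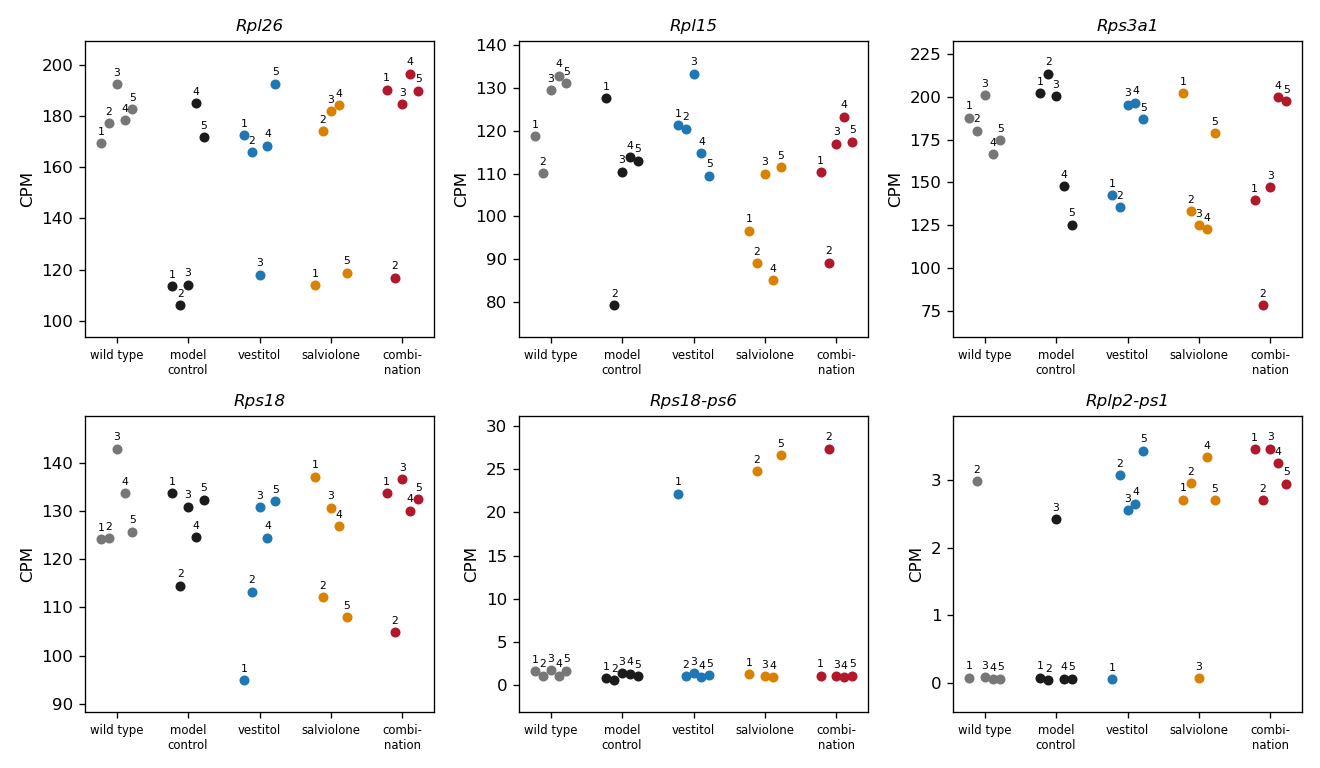
CPM of 4 members (Rpl26, Rpl15, Rps3a1, Rps18) and 2 pseudogenes in each mouse by group, with mouse numbers; axes do not start at 0 for the members. Rpl26 splits into mice at 106 to 119 CPM and at 166 to 197 CPM, and the 4 mice with Rps18-ps6 above 22 CPM have the lowest Rps18.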

How the data were processed

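The authors deposited a table with raw counts and FPKM per gene for the 25 libraries. Reads were trimmed with Trim Galore and aligned with STAR to mm39, per the submitters' processing notes. Not given in the sources used here: versions, counting tool, annotation and strand setting. The labels name both TruSeq and SMARTER kits. The FPKM were made by the authors and served for levels and as an alternative on the log2(FPKM + pseudocount) scale. Counts were scaled by TMM and tested with edgeR 4.0.16 (quasi-likelihood, robust, all 25 mice in 1 fit, filterByExpr with a minimum count of 10, Benjamini-Hochberg over 16515 genes). The code was tested on simulated data. DESeq2 1.42.0 and limma 3.58.1 were alternatives. Total counts were 59376320 or more per mouse, and 2 mice of a group differed by a chi-square of 40.19 to 173.4 per gene, beyond counting error. Members, lists and the rule for named genes (smallest p-values and fixed role lists) were chosen with earlier results of these data known. The hypothalamus and striatum covariates, the pseudogene sums and the omission of the 3 deepest libraries were added after seeing the data. A few genes are counted among the members or lists but not reported by name here.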

Additional observations from a re-analysis of the deposited data

Results flagged for a closer look

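In groups of 5 mice, 1 mouse was set far from the other 4 in 15 of 195 groups examined. Chance gives about 1 in 20 for unselected, independent groups. The genes here were chosen partly for small p or large spread and share mice, so no excess can be read from this. Wild type mouse 3 accounted for 5 of the 15: Rpl10 at 258 CPM (others 204 to 211), Rpl13 at 199 CPM (158 to 169), Rpl13a at 355 CPM (306 to 316), Rpl23 at 139 CPM (121 to 125), and the share of counts of all members at 1.16% (0.968% to 1.02%). That mouse also carried the pituitary markers, and their part in these values was not tested.

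In the model control, Rpl10 was at 217 CPM in mouse 4 (others 198 to 203). Rpl13a was at 311 CPM in mouse 2 (336 to 346) and Rps19 at 76.0 CPM in the same mouse (86.7 to 89.4). Rps27a was at 111 CPM in mouse 5 (118 to 120.1). With vestitol, Rps10 was at 100.3 CPM in mouse 4 (52.3 to 57.8) and Rps27 at 103 CPM in mouse 5 (80.9 to 86.7). With salviolone, Rpl3 was at 433 CPM in mouse 5 (500.5 to 514), Rps27 at 96.5 CPM in the same mouse (89.8 to 91.6), and the member share at 1.01% in mouse 2 (others 1.04%). With the combination, Rpl26 was at 117 CPM in mouse 2 (185 to 197).

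In the combination mice 27 members were higher than the mean of both single compounds by the test of that contrast, 35.1% against 12.9% of all genes. None was lower, against 11.2% of all genes. With the hypothalamus score as a covariate no member was called, and 0% of all genes were raised. Outside the members, the pseudogene Rps18-ps6 reached 27.3 CPM, above the 0.624 to 1.44 CPM of the model control.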

How the results depend on the processing

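Other settings were other scaling, filters, DESeq2, voom, FPKM, the replicate block, only the groups compared, mitochondrial genes left out, and counts divided by 4. Under them the members raised by the combination numbered 20 to 32 against the control (26% to 41.6%, against 6.48% to 11.4% of all genes). Against the mean of both compounds they numbered 27 to 35 (35.1% to 45.5%, against 11% to 17.1% of all genes). The mice that share a number did not deviate together (correlations of -0.0921 to 0.0807). This gave no sign that the numbers pair the mice, but with 5 mice a group it cannot exclude a pairing. With the replicate block these counts of raised members were 27 and 30. The block, voom and both FPKM fits called 1 member lower in the model control than in wild type (Rpl3), and voom 3 higher. In the main fit 6.21% of all genes were lower there and 5.37% higher. DESeq2 called 1 member higher with salviolone than in the control, where the main fit raised 0% of all genes. Between vestitol and salviolone the block and voom called 1 member lower and DESeq2 2, where the main fit had 0.0908% of all genes lower. The shares of all genes under these other fits are not reported here. Against the control, the member lowered by the combination (Rpl22) dropped to 0 without the filter, with only the groups compared, in voom, in both FPKM fits, with either covariate set and without the 3 deepest libraries. With the hypothalamus score as covariate, or with the striatum score too, 0 members and 0% of all genes were raised in both combination comparisons. The member medians were 0.0592 and 0.0501 with the respective sets against the control, and 0.0345 and 0.0486 against the mean. Without the 3 deepest libraries 4 and 5 were raised, 5.19% and 6.49% of the members against 3.01% and 6.83% of all genes. With both scores the change of Rps21 against the mean reversed to -0.0022 (adjusted p = 0.997, edgeR). On the FPKM scale the member share was 2.23% in wild type, 2.15% in the control, 2.13% with vestitol, 2.20% with salviolone and 2.36% with the combination. Leaving out each mouse in turn gave 15 to 31 raised members against the control (19.5% to 40.3%, against 5.62% to 8.03% of all genes). Against the mean it gave 16 to 30 (20.8% to 39%, against 10.4% to 12.6% of all genes). It gave 0 to 1 lowered against the control, where the main fit lowered 7.13% of all genes. It gave 0 to 1 raised and 0 to 2 lowered in the model control, and 0 to 2 lower with vestitol than with salviolone. For these counts the shares of all genes with a mouse left out are not reported here. The cause of these changes was not tested. Rpl39 had the lowest depth, 14 to 87 counts, and its spread was not split into counting error and differences between mice.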
